A study of Mus musculus with 6 samples.

Results

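At 570 of the 21497 genomic regions that carried an H3K4me3 peak in all 6 deposited lists (2.65%), the peak of the wild-type striatal line reached at least 500 bp beyond the peaks of all 5 mutant-line lists at one end or both. The lists came from H3K4me3 ChIP-Seq of STHdh cells, immortalised mouse striatal progenitor cells labelled C57BL/6. Q7SST is the wild-type line (genotype label STHdh7) held for 24 hours in serum-free medium with vehicle, and Q111SST is the mutant line (STHdhQ111, which carries a knocked-in expansion of the glutamine codons of Huntingtin) held the same way. In the other 4 lists the mutant line was given, for the same 24 hours without serum, 10 uM of cyproheptadine, loxapine, diacylglycerol kinase inhibitor II (DKI) or meclizine. All 6 conditions therefore share serum starvation, no compound was given to the wild-type line, and the genotype is represented by 1 line on each side, so that the expansion cannot be told apart from any other difference between the lines.

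The 570 regions were chosen by these same peak ends. Overlapping peaks of the 6 lists were merged into 61171 regions, of which 21497 (35.1%) overlapped a peak of every list. A region was kept where the outermost Q7SST start or end lay at least 500 bp outside the outermost start or end of each mutant-line list. The stretch between the furthest mutant-line end and the Q7SST end is called the extension here. There was 1 list per condition and no replicate spread, so sizes of extensions describe these lists and carry no test. For reading them, 2 sets were made by the same rule: regions where all 5 mutant-line lists passed Q7SST by at least 500 bp (regions short in Q7SST), and regions where another single list passed the other 5.

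H3K4me3, trimethylation of lysine 4 of histone H3, is laid down by SET1 and MLL methyltransferase complexes around active transcription start sites. It flanks the nucleosome-depleted start and usually spreads further into the transcribed side than upstream. At genes of cell identity and development the mark can form broad domains, and the width of a domain is a property separate from its height.

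The Huntingtin gene (Htt) itself was a member, and the sequence of its glutamine run, just past the mutant-line ends, is shown first because the lines differ there by genotype. The window holds the Q111SST end, and the ends of the 4 compound lists lie before it. On the plus strand of GRCm38, the window chr5:34761922-34762011 lies in coding sequence of exon 1, and the capitals mark the 7 glutamine codons of the reference run (chr5:34761958-34761978).

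Htt: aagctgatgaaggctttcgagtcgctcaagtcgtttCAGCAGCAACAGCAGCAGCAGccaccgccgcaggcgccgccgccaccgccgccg

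The Htt region spanned chr5:34760901-34763325. Its Q7SST peak ended at 34763325, whereas the mutant-line peaks ended at 34761948 (Q111SST), 34761886 (cyproheptadine), 34761907 (loxapine), 34761845 (DKI) and 34761893 (meclizine). All 5 mutant-line ends therefore lay before the first codon of the run, the furthest of them separated from it by 9 bases, and the Q7SST peak ran through the run and 1377 bp past the furthest mutant-line end. Measured from the annotated start, Q7SST reached 1581 bp into the gene and the mutant-line lists 101 to 204 bp. The peak score was 97 in Q7SST and between 60 and 161 in the mutant-line lists, so the lists overlapped in score while differing in reach. The reads were aligned to a reference that holds the short run, and how reads from the expanded allele behave at this exon was not tested. The paper describes the mutant line as a homozygous knock-in and the huntingtin gene of these cells as human. Sequence differences from GRCm38 beyond the length of the run are therefore possible here, and their effect on the mutant-line ends was not tested.

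**Figure D1:**
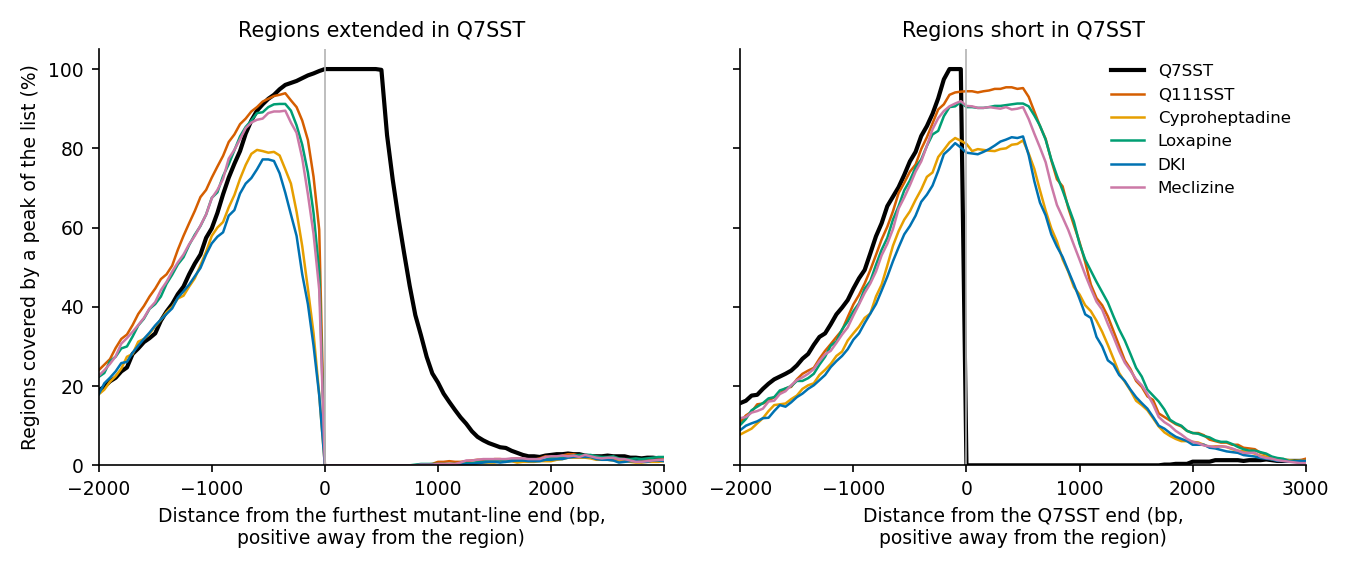
Percent of regions covered by a peak of each list (y axis) against distance in bp from the shorter end (x axis), for the 570 regions extended in Q7SST (left, 0 at the furthest mutant-line end) and the 540 regions short in Q7SST (right, 0 at the Q7SST end). The drop at 0 follows from the rule; on the left Q7SST covered 45.3% of the regions at 750 bp and 20.9% at 1000 bp.

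The extensions had a median of 720 bp (quartiles 590 and 920 bp) and reached 3338 bp. There were 119 over 1000 bp and 7 over 2000 bp. They lay at the lower coordinate in 271 regions and at the higher coordinate in 299, with 3 regions extended at both ends. Of regions just inside the threshold, 1 within Itpr1 passed it with 500 bp, and 1 at Itga6, a laminin receptor subunit, with 502 bp. Just outside it lay regions at Qk and Cnnm4 with 499 bp and at Mxra7 with 498 bp. The sizes had no gap there: 223 regions had an extension of 400 to 499 bp and 158 one of 500 to 599 bp.

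The converse was nearly as frequent. In 540 regions (2.51%) all 5 mutant-line lists passed Q7SST by 500 bp, with a median of 868 bp and 211 over 1000 bp. Q111SST passed the other 5 lists in 221 regions (1.03%), loxapine in 186 (0.865%), meclizine in 91 (0.423%), cyproheptadine in 55 (0.256%) and DKI in 52 (0.242%). Each of these 5 counts was under the 570 of Q7SST, but the other 5 lists of Q7SST are of another line, while each mutant-line list stood against 4 lists of its own line. Counted from 1 bp, Q7SST passed all 5 lists in 9460 regions and fell inside all 5 in 6246, while above 1000 bp the short regions were the more numerous.

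**Figure D2:**
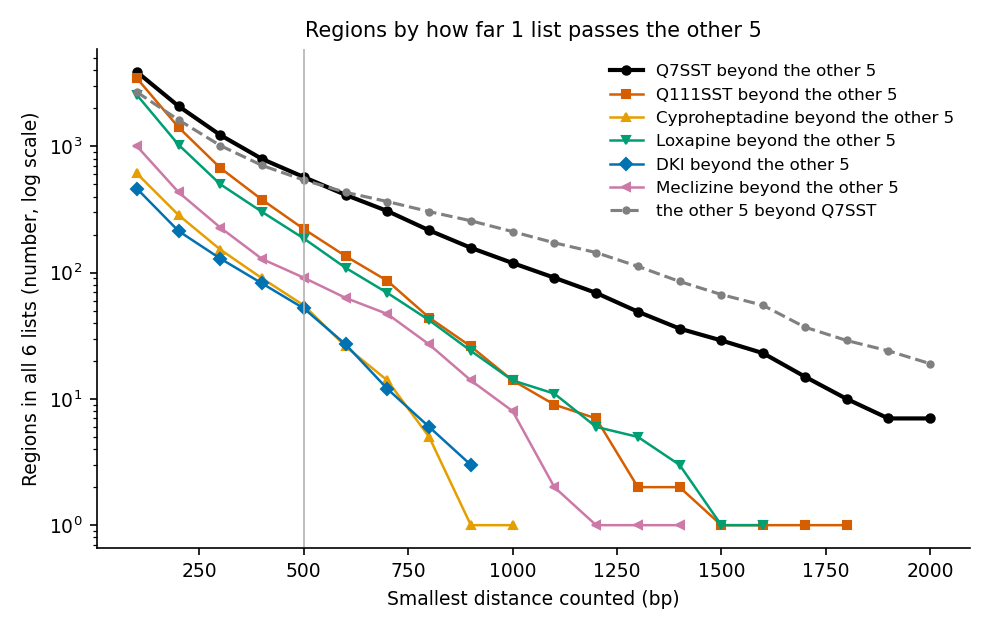
Number of regions in all 6 lists (y axis, log scale) in which 1 list passed the other 5 by at least the distance on the x axis (bp), with the regions where the other 5 passed Q7SST as a dashed line. At 500 bp (vertical line) the counts are 570 for Q7SST, 221 for Q111SST, 186 for loxapine, 91 for meclizine, 55 for cyproheptadine and 52 for DKI, against 540 for the dashed line.

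The 5 mutant-line ends were spread slightly more at the extended regions than elsewhere. Their span had a median of 283 bp (quartiles 154 and 447 bp), against 242 bp (139 and 399 bp) over both ends of all regions in the 6 lists, and it was at most 100 bp in 13.5% and 16.2%. The extension, which the rule sets at 500 bp or more, was larger than the span in 502 of the 570 regions. Q111SST ended a median of 802 bp inside Q7SST, loxapine 834 bp, meclizine 850 bp, cyproheptadine 962 bp and DKI 994 bp. The order of these distances was the order seen over all ends, where DKI and cyproheptadine also reached least far, and it follows the lengths of the lists (Q111SST 40406 peaks, loxapine 45564, meclizine 38577, cyproheptadine 33721 and DKI 30758) except between Q111SST and loxapine. Q7SST held 38392 peaks.

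By the rule, no compound list came within 500 bp of the Q7SST end at these regions, so the reach of the compound lists past Q111SST is given as values from which nothing is read. The loxapine list ended beyond Q111SST at 40.0% of the extended ends, at 55.6% of the short ends and at 44.8% of all ends. The values were 17.7%, 32.4% and 21.1% for cyproheptadine, 16.0%, 30.9% and 18% for DKI, and 38.9%, 47.2% and 34.8% for meclizine. A compound list passed Q111SST by 500 bp or more at 13 extended ends with loxapine (2.28%, against 1.46% of all ends), 12 with meclizine (2.11% against 0.947%), 5 with DKI (0.877% against 0.609%) and 3 with cyproheptadine (0.526% against 0.642%). Past the Q7SST end, the next peak of any mutant-line list was a median of 15300 bp away, and in 17 regions it lay within 1 kb.

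The largest extensions mixed promoters with stretches inside genes and away from coding genes. The region with the largest one (chr13:78207268-78211284) held no annotated start of a coding gene and lay 9519 bp from the nearest, that of Nr2f1, an orphan nuclear receptor of neural development. All 3338 bp of the extension were annotated as intron of a noncoding gene. Its peaks were 3887 bp wide in Q7SST and 590, 406, 667, 463 and 651 bp wide in Q111SST, cyproheptadine, loxapine, DKI and meclizine. The Q7SST peak was the weakest of the 6, with a score of 28 against 33 to 78. A region inside Tcf4 (chr18:69575485-69580254), a gene for a basic helix-loop-helix factor, was alike in this respect: its extension was 3042 bp, and its score was 22 in Q7SST and 62 to 113 in the mutant-line lists. Wide and low peaks of Q7SST were thus set against narrow and higher ones in both.

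At 5 coding genes the start was passed by over 1700 bp of extension on the transcribed side without any annotated coding start in the extension. Patz1, a zinc finger factor (chr11:3288653-3292835), had peaks of 4183 bp in Q7SST and 1834, 1405, 1638, 1422 and 1883 bp in Q111SST, cyproheptadine, loxapine, DKI and meclizine. Its Q7SST peak ended 2378 bp past the nearest start, where the mutant-line lists lay between 377 bp before and 82 bp past that start. Vcam1, an adhesion molecule (chr3:116127114-116130460), was marked to 2343 bp past its start in Q7SST and to 9 to 277 bp in the mutant-line lists. The peak of Mid1, a microtubule-bound ubiquitin ligase on the X chromosome (chrX:169879580-169883962), reached 4298 bp in Q7SST and 1538 to 2442 bp in the others. Tnc, which encodes the matrix protein tenascin C (chr4:64044578-64047662), was marked to 2437 bp against 422 to 640 bp. The peak of Kif26b, a kinesin family member (chr1:178527274-178531241), reached 2116 bp against at most 356 bp, with the DKI end 1182 bp before the start. Q7SST had 2 peaks there, and the outer one, which makes the extension, scored 47. In all 5 genes the mutant-line ends lay nearer to each other than to the Q7SST end. The choice of the largest extensions favours this, so nothing is read from it. The width differed while the score did not follow one direction: the score of the extending Q7SST peak was above all 5 others for Vcam1 (113 against 48 to 112), below all 5 for Mid1 (45 against 69 to 136), and within their range for Patz1, Tnc and Kif26b (47 against 46 to 74, the other Q7SST peak of Kif26b scoring 104).

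**Figure D3:**
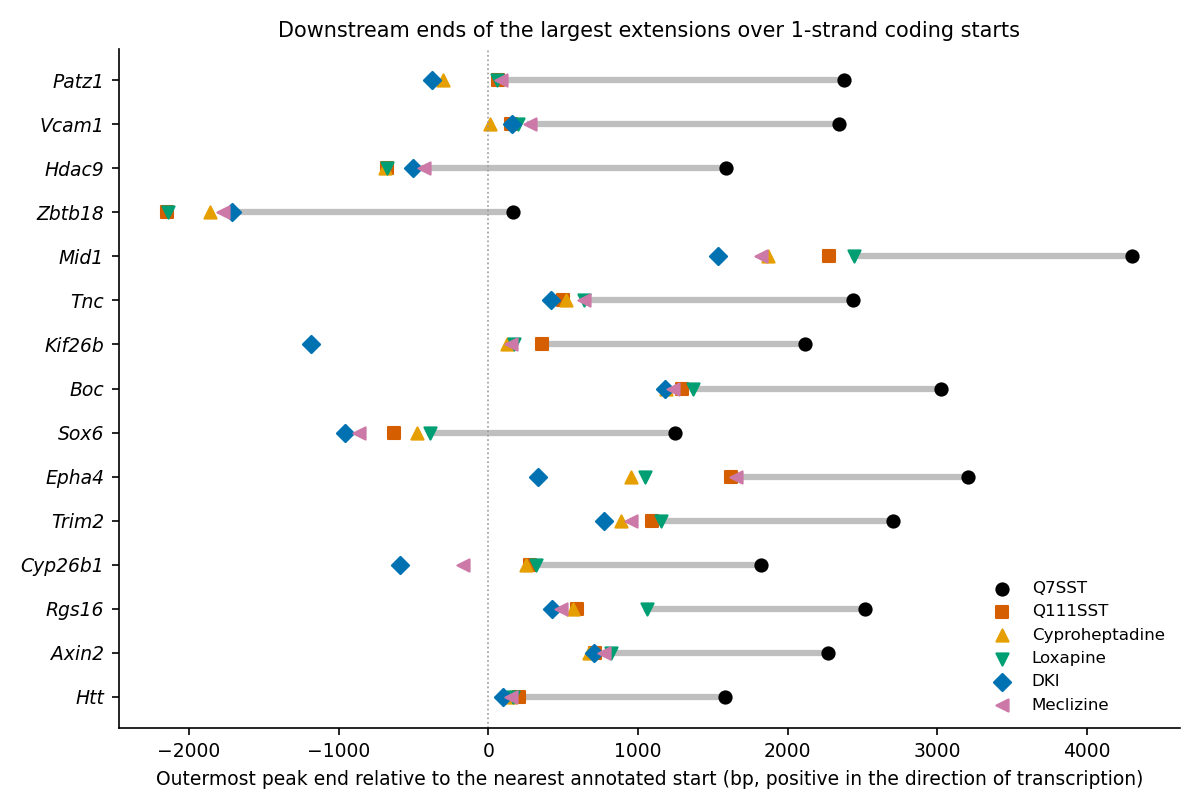
Position of the outermost downstream peak end of each list relative to the nearest annotated start (x axis, bp, positive in the direction of transcription) for the 14 largest downstream extensions at regions with coding starts on 1 strand, and for Htt. The grey bar is the extension; the Q7SST point (black) is right of all 5 mutant-line points in every row, by 1377 bp at Htt and by 2296 bp at Patz1, as the rule requires.

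Regions with an extension at both ends were those of Mir99ahg, Cacna1a and the Peg3 and Usp29 pair. Mir99ahg, the noncoding host transcript of a microRNA cluster (chr16:77592831-77597880), had a Q7SST peak of 5050 bp that passed the mutant-line lists by 2686 and 1351 bp. The mutant-line peaks there were 342 to 1013 bp wide. Cacna1a, which encodes the pore subunit of the P/Q-type calcium channel (chr8:84414111-84416536), had 2426 bp in Q7SST and 364 to 508 bp in the mutant-line lists, with extensions of 1285 and 622 bp. At Peg3 and Usp29, imprinted genes transcribed in opposite directions from neighbouring starts (chr7:6727630-6730792), the Q7SST peak was 3163 bp wide and the others 873 to 1590 bp, with 791 and 739 bp. In these 3 regions the mutant-line peak lay within the Q7SST one on both sides.

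The extended regions did not carry stronger Q7SST peaks. The median score over the 570 was 66 in Q7SST and 62 in Q111SST, and under the compounds it was 45 (cyproheptadine), 66 (loxapine), 46 (DKI) and 70 (meclizine). Over all regions in the 6 lists these medians were 85, 82, 61, 87, 62 and 95. The score of Q7SST was above all 5 others in 25.8% of members and in 22.5% of all regions, and below all 5 in 18.8% and 12.6%. Width was different by the rule, with a median of 2067 bp in Q7SST and 865 to 1312 bp in the mutant-line lists. Extensions were found more often at weaker regions: with all regions divided into 4 groups of equal size by Q111SST score, 3.94%, 3.0%, 2.29% and 1.38% were extended from the weakest to the strongest group. The share short in Q7SST fell along the same groups, from 3.89% to 0.782%. In 521 of the 570 regions each list had a single peak, so that most extensions are a longer single peak and not an added one.

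The member with the highest score of its extending peak was at Psd3, which encodes an exchange factor for ARF6 (chr8:68060186-68062749). Its scores were 249 in Q7SST and 181, 148, 199, 163 and 202 in Q111SST, cyproheptadine, loxapine, DKI and meclizine, and its extension was 637 bp. At its other end Q7SST fell short of all 5 lists, 618 bp inside the furthest of them, and the widths were alike (1946 bp in Q7SST and 1838 to 1916 bp in the others), so that its peak was displaced more than lengthened. Map2k4, a kinase upstream of JNK, followed with 214 against 99 to 160, then Sema5b, a semaphorin, with 202 against 59 to 154. A region between genes on chromosome 16 (chr16:55555495-55556977) scored 198 against 25 to 67, the widest gap among the 8 highest. Slc9a9, an endosomal sodium and proton exchanger, scored 186 against 81 to 128. At the remaining 3 the Q7SST score was within or below the mutant-line range: 197 against 174 to 236 for Nudt4, a diphosphoinositol phosphatase, 191 against 195 to 317 for the chromatin kinase gene Tlk2, and 190 against 80 to 200 within Crybg1.

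Promoters made up about the same part of the members as of all regions. A start of a protein-coding gene lay in 284 of the 570 regions (49.8%, 95% Wilson interval 45.7% to 53.9%), against 46.1% of all regions in the 6 lists and 38.9% (34.9% to 43.1%) of the regions short in Q7SST. Another 26 members (4.56%) held only a noncoding start, 160 (28.1%) lay within a coding gene away from its starts, and 100 (17.5%, 14.6% to 20.9%) lay elsewhere, where 23.3% of all regions lay. These intervals reflect counting error alone, although regions near each other are not independent. Counted by class, 2.87% of regions with a coding start were extended and 2.12% short, and the shares were 2.76% and 2.96% within coding genes.

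On the promoters with coding starts on 1 strand, the extension lay on the transcribed side more often than upstream. It was downstream in 175 of 265 (66.0%, 60.1% to 71.5%) and upstream in 90, and 19 members had starts on both strands. The downstream share was 73.4% (66.9% to 79.0%) at the regions short in Q7SST, 91.7% (83.0% to 96.1%) of 72 regions extended in Q111SST and 84.7% (74.7% to 91.2%) of 72 extended with loxapine. It was 30.8% (18.6% to 46.4%) of 39 extended with meclizine, the one share whose interval lay under 50%. The shares with cyproheptadine (73.3%, 48.0% to 89.1%) and DKI (45.5%, 21.3% to 72%) rested on 15 and 11 regions. A downstream excess was therefore common to both directions of the wild-type comparison. When peaks under the median score of the pooled lists were dropped, the share was 52.1% (44.0% to 60.0%) of 146, so the excess was not seen without the weaker peaks. Counted from 1 bp the sides were the other way round: over the 8901 regions with coding starts on 1 strand, Q7SST passed the furthest mutant-line end downstream in 21.4% and upstream in 32.7%, whereas by 500 bp or more it did so in 1.97% and 1.02%.

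**Figure D4:**
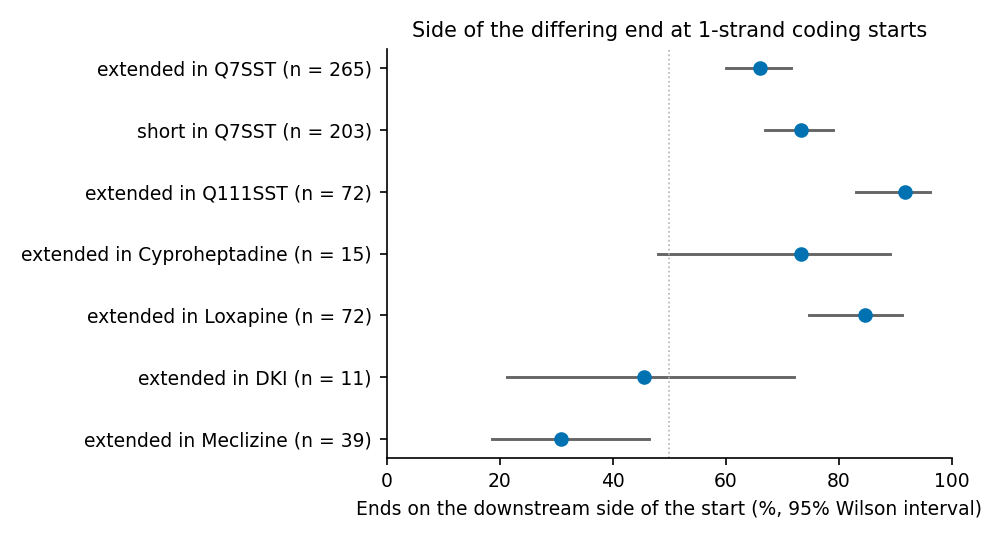
Percent of differing ends on the downstream side of the start (x axis) for each set of regions with coding starts on 1 strand (n beside each name). Points are shares and bars 95% Wilson intervals, with 66.0% for regions extended in Q7SST and 73.4% for regions short in Q7SST; the dotted line marks 50%.

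Over the 175 downstream extensions, the Q7SST peak ended a median of 1870 bp past the nearest start, and the mutant-line peaks 904 bp (Q111SST), 641 bp (cyproheptadine), 860 bp (loxapine), 574 bp (DKI) and 863 bp (meclizine) past it. Upstream extensions had another form. Q7SST passed the start by a median of 715 bp over the 90, while the median of each mutant-line list was negative, from -19.0 bp with meclizine to -254 bp with cyproheptadine. The mutant-line peak stopped before reaching this start from the transcribed side in 48 (meclizine) to 56 (cyproheptadine) of the 90, and passed it in the others. The start meant here is the coding start nearest to the extended end, so a mutant-line peak that stopped before it could still cover another start of the region.

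In 54 members every coding start of the region lay inside the extension, so that no mutant-line peak of the region covered a start and the Q7SST peak covered all of them. Of these, 39 were among the 90 upstream extensions, 13 among the 175 downstream ones and 2 at starts on both strands. The regions short in Q7SST held 29 such cases, 16 upstream and 13 downstream. Over the 39, Q7SST passed the start by a median of 375 bp (quartiles 286 and 476 bp) and the furthest mutant-line list stopped 443 bp short of it (240 and 557 bp). At Psd3 the mutant-line ends lay 115 to 165 bp short, and Q7SST 522 bp past the start. At Map2k4 they lay 544 to 618 bp short, against 181 bp past it. The same distances were 456 to 507 bp and 375 bp at Nudt4, and 636 to 699 bp and 130 bp at Tlk2. These 4 genes were among the highest-scoring members. In each the 5 mutant-line ends fell within a stretch narrower than their distance to the Q7SST end, as in 502 of the 570 members, which the rule favours. For the 13 downstream cases the mutant-line peaks lay before the start: at Sema5b they ended 314 to 522 bp short of it and Q7SST ended 620 bp past it, and at Zbtb18, a transcriptional repressor needed for neuronal differentiation, 1715 to 2148 bp short against 164 bp past.

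At the end opposite to the extension Q7SST more often fell inside all 5 mutant-line lists. This end was not used by the rule, except that 3 regions extended at both ends were left out. Over 567 regions the Q7SST end differed by a median of -6.0 bp from the median mutant-line end (negative is inside), where both ends of all regions gave 13 bp. It lay inside all 5 lists in 164 regions (28.9%), against 16.3% of all ends, and by 500 bp or more in 30 (5.29% against 1.26%). It lay beyond all 5 in 19.4%, against 24.8%. Weighted to the members' mix of the 4 score groups and of regions with and without coding starts, all ends gave 16.3% inside, 1.55% inside by 500 bp and 25.8% beyond. The excess inside was present with a coding start in all 4 score groups (21.2% to 38.1% of members, 10.6% to 14.2% of all ends), and without one in 3 of 4, being absent in the third group (17.9% of 39 members, 20.7% of all ends). At the regions short in Q7SST the opposite end leaned the other way, beyond all 5 lists in 43.5%. These opposite ends have no test, since the lists have no replicates.

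The 30 regions that were extended at one end and short at the other are ones where the Q7SST peak lay to one side of the mutant-line peaks. A coding start lay in 16 of them, and 10 lay within a coding gene away from its starts. At Trps1, a GATA-type repressor gene (chr15:50885281-50890045), Q7SST passed the mutant-line lists by 1568 bp upstream and fell short of all 5 at the other end. Its peaks were of similar width, 3334 bp in Q7SST and 2438 to 3197 bp in the others, while the score was 103 in Q7SST and 32 to 40 in the others. Tbx15, a T-box factor gene (chr3:99253303-99256503), had the same form, with widths of 1905 bp and 1873 to 2141 bp, an upstream extension of 1060 bp, and a score of 124 against 21 to 28. In Q7SST the mark at both genes covered the annotated start, which it passed by 457 bp at Tbx15 and by only 4 bp at Trps1. The mutant-line peaks left it uncovered by 603 bp or more at Tbx15 and 1564 bp or more at Trps1. Trim2, a ubiquitin ligase gene, was the reverse in strength: its extension of 1552 bp lay downstream, and its score was 19 in Q7SST and 60 to 122 in the mutant-line lists. Trps1 and Trim2 were picked from the 30 after their values were seen, and Tbx15 is named by its gene list.

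The bases of the extensions were mostly intronic. Of 469475 bp, 66.0% were intron, 20.2% between genes, 6.55% untranslated exon, 4.02% coding sequence and 3.24% noncoding exon. The bases that Q7SST lacked at the short regions had 66.1% intron, 25.4% between genes, 3.34% untranslated exon and 1.99% coding sequence. At members with a coding start, the ratio of observed to expected CpG was 0.589 in the 500 bp on the shared side of the furthest mutant-line end, 0.557 in the extension and 0.345 in the 500 bp outside it, pooled over bases. The medians over these regions were 0.526, 0.411 and 0.272, so that the typical extension lay between the shared side and the outer flank. The corresponding missing bases of the short regions had 0.423, and over all regions with a coding start the first 500 bp inside an end had 0.468 and the 500 bp outside it 0.281. In members without a coding start the values were flat, with 0.290, 0.278 and 0.243. Soft-masked repeats took 13.4% of the shared side, 16.0% of the extensions and 19.3% of the 500 bp outside them, against 16.6% of the first 500 bp inside and 26.2% of the 500 bp outside the ends of all regions. They took 19.1% of the missing bases at short regions.

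The next 4 windows show the bases on both sides of the furthest mutant-line end at downstream extensions, 60 bases on the shared side and then 60 in the extension, read 5′ to 3′ on the strand of the gene from GRCm38, with CpG in capitals. Mid1 (chrX:169882047-169882166, plus strand) and Tnc (chr4:64046315-64046434, minus strand) had the largest downstream extensions, and Lrrc10b (chr19:10457557-10457676, minus strand) and Hoxa7 (chr6:52217162-52217281, minus strand) the most CpG-rich ones, among regions with a single annotated gene start whose window held no untranslated or noncoding exon.
Mid1: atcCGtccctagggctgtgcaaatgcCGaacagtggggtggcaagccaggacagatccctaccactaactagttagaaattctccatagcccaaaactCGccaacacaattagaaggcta
Tnc: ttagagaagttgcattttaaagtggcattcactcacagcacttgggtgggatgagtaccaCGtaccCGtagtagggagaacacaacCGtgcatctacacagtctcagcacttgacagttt
Lrrc10b: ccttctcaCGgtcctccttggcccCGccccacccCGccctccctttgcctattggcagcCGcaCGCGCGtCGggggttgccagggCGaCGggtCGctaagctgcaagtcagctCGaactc
Hoxa7: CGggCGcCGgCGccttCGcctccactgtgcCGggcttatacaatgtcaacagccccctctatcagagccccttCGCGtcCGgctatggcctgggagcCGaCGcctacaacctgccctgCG

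The intronic windows of Mid1 and Tnc held 3 CpG each, and those of Lrrc10b (between genes) and Hoxa7 (coding sequence) 12 each. The mutant-line peaks thus ended in CpG-poor sequence at some members and within CpG-rich sequence at others: in the Lrrc10b window 8 of the 12 CpG lay in the part that only Q7SST covered.

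By gene, 302 protein-coding genes had a start in an extended region, 2.81% of the 10738 with a start in any region of the 6 lists, and 217 (2.02%) had one in a short region, with 21 genes in both. Of 31 gene lists, 21 had a gene with a start in a member. The lists hold few marked genes each, so they are given as counts beside the 2.81% over all genes.

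Among polyglutamine disease genes, 3 of the 6 with a start in a region were in members (Htt, Cacna1a and Atxn7) and 0 in short regions. Atxn7, a subunit of the SAGA coactivator, shares its region with Thoc7 on the other strand (chr14:13959851-13961886). Its Q7SST peak was 1905 bp wide and passed the furthest mutant-line end by 872 bp, and both starts lay in the extension. The 5 mutant-line peaks were 846 to 1074 bp wide. Cacna1a was described above. The share of 50.0%, beside 2.81% over all genes, rests on a small count of 3 in a list chosen with earlier results of these data known. Whether it sets this list apart was not tested.

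Transcription factors of development stood in several lists, in both directions. Striatal lineage factors had 1 of 14 in a member (Bcl11a) and 4 in short regions (Ebf1, Foxp1, Meis1 and Meis2). The Sox genes had 1 of 7 (Sox6) against 1 short (Sox5), forkhead genes 2 of 19 (Foxf1 and Foxf2) against 1 (Foxp1), Hox genes 1 of 17 (Hoxa7) against 1 (Hoxc11), T-box genes 1 of 5 (Tbx15, in both sets), LIM homeobox genes 1 of 6 (Lhx9) against 0, and Kruppel-like factors 1 of 10 (Klf4) against 0. Sox6, a factor of cell fate in neurons and cartilage, held 3 members within its body, 2 of them over starts (chr7:115823465-115826268 and chr7:116038327-116040395), with extensions of 1633 and 1224 bp. In both the mutant-line peaks ended before the start that the Q7SST peak covered. Klf4 (chr4:55530112-55533933) is a pluripotency factor whose peak ended 2354 bp past the start in Q7SST and 1498 to 1562 bp in the mutant-line lists. At Bcl11a (chr11:24076012-24078231), a factor of neuronal differentiation, Q7SST ended 58 bp past an annotated start and the others 769 to 1225 bp short of it. Zfp genes, the largest list, had 4 of 292 in members (Zfp46, Zfp462, Zfp61 and Zfp623), 1.37% against 2.81% over all genes, and 3 in short regions (1.03% against 2.02%).

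Signalling and surface molecules gave from 0 to 6 members a list. Ephrins and Eph receptors had 1 of 11 (Epha4), Wnt ligands and Frizzled receptors 1 of 14 (Fzd1), Bmp and Tgfb ligands and receptors 1 of 10 (Tgfb2) against 1 short (Tgfbr3), Fgf ligands and receptors 1 of 8 (Fgf20, in both sets), and semaphorins and plexins 2 of 18 (Sema5b and Plxnb1) against 2 (Sema3e and Sema5a). Epha4, an axon guidance receptor (chr1:77511882-77515833), had peaks of 3579 bp in Q7SST and 2212, 990, 1720, 1058 and 2398 bp in Q111SST, cyproheptadine, loxapine, DKI and meclizine. The mutant-line ends there were spread out, from 335 bp past the start with DKI to 1652 bp with meclizine, and Q7SST ended at 3206 bp. Fzd1 ended at 1974 bp in Q7SST and at 194 to 1010 bp in the others. Collagens had 1 of 14 (Col11a1) against 1 short (Col6a2), potassium channels 1 of 11 (Kcnn3) against 1 (Kcnj2), and protocadherins and cadherins 0 of 14. Solute carriers had 6 of 147 in members (Slc2a13, Slc38a1, Slc48a1, Slc50a1, Slc9a2 and Slc9a9, 4.08%) and 1 in short regions (0.68%). Slc38a1, a glutamine transporter, had the largest extension of these, 1166 bp upstream, with scores of 84 in Q7SST and 47 to 81 in the mutant-line lists.

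Housekeeping lists had no or single members. The counts were 0 of 75 cytosolic ribosomal proteins, 0 of 37 proteasome subunits, 0 of 20 electron transport genes, and 1 of 22 autophagy genes, Rb1cc1, which encodes a scaffold of the autophagy initiation complex. None of the first 3 lists had a gene in a short region either. The writers of the mark had 0 of 14 H3K4 methyltransferase complex genes in members and 1 in short regions (Hcfc1), and the erasers 1 of 5, the H3K4 demethylase Kdm1b (extension 530 bp). Rb1cc1 had peaks of 3773 bp in Q7SST and 2454 to 3205 bp in the mutant-line lists.

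Of 42 marker genes of cell types, 4 separated Q7SST from all 5 mutant-line lists: Adora2a and Tac1 were marked in Q7SST alone, and Sox2 and Col1a2 in all but Q7SST. A peak lay within 1 kb of a start in all 6 lists at the neural progenitor genes Vim and Fabp7 and in none at Sox1, Hes5 and Msi1. Nes was marked in Q7SST with a score of 150, in 4 mutant-line lists with 30 to 73 and not with cyproheptadine, and Pax6 was marked in 4 lists, Q7SST among them, and not with cyproheptadine or DKI. Of 7 fibroblast and mesenchyme genes, 6 were marked in every list. Striatal neuron genes were marked at 4 of 6 in Q7SST and at 1 or 2 in each mutant-line list, with Drd1 and Drd2 in none. Of 6 neuron genes 2 or 3 were marked in each list, with Rbfox3, Snap25 and Dcx in none, and of 7 glial genes 0 in 5 lists and 1 with meclizine. Of 4 immune genes Ptprc, Cx3cr1 and Csf1r were in none, and Aif1 was marked in Q7SST (score 18) and Q111SST (13) alone. Of 4 endothelial genes 1 or 2 were marked in each list. Among these markers the members held Tubb3 (1 of 2 neuron genes with a start in a region) and Pdgfra (1 of 4 mesenchyme genes, also in a short region), and no neural progenitor (0 of 2) or endothelial gene (0 of 1). The striatal, glial and immune lists had 0 genes with a start in a region of all 6 lists. The part of these marker differences in the extensions was not tested.

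Members were spread over all autosomes and the X chromosome. The share of regions extended ran from 1.65% (1.07% to 2.54%) on chromosome 7 and 1.74% (1.21% to 2.51%) on chromosome 11 to 4.81% (3.33% to 6.91%) on chromosome 18, around 2.65% in all. Counted by coding genes, chromosome 3 came first with 5.18%, chromosome 18 had 4.49%, chromosome 7 was lowest of the autosomes with 1.28%, and chromosomes 6, 12, 17 and 9 (1.39%, 1.43%, 1.51% and 1.83%) fell below chromosome 11 (1.87%), so the order rests on the base. Chromosome 18 had 27 members among 561 regions, and its share short in Q7SST was 2.14%. Of its members 5 overlapped Tcf4, more than any other gene held, with extensions from 716 to 3042 bp. Chromosome 11 had 2.99% short. Chromosome X had 18 members of 552 (3.26%), and Y had 0 of 12, which allows a share of up to 24.2% by the Wilson interval. The paper lists both lines as female, and the origin of the peaks placed on Y was not tested. With 20 chromosomes side by side, the 3 intervals that miss the common share are a description with no test, and copy number of the lines was not tested.

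**Figure D5:**
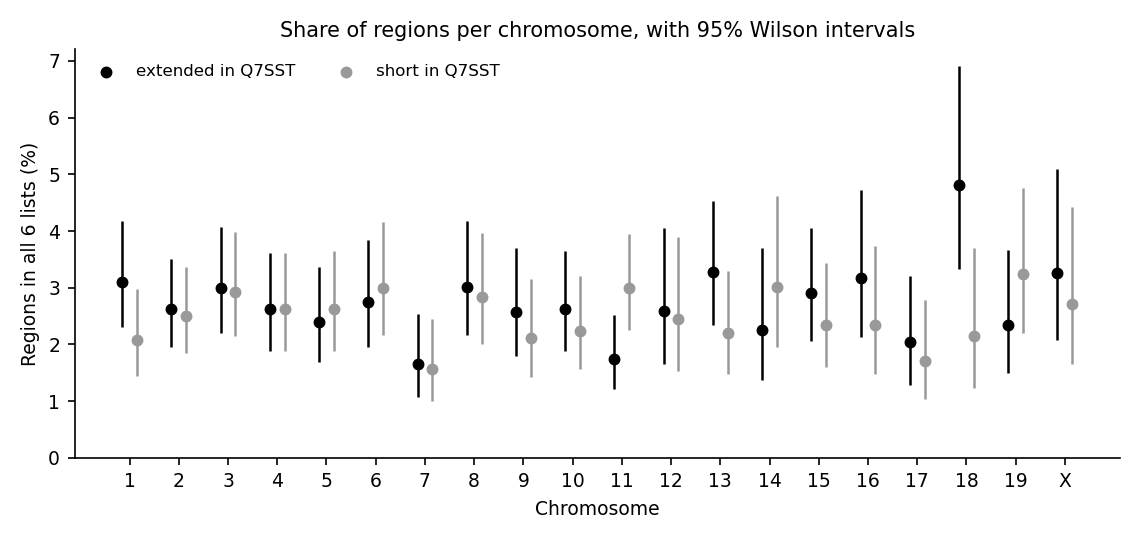
Percent of regions in all 6 lists (y axis) that were extended (black) or short (grey) in Q7SST on chromosomes 1 to 19 and X (x axis), with 95% Wilson intervals as bars. Chromosome 18 is highest for extended regions with 4.81%, and chromosomes 7 and 11 lowest with 1.65% and 1.74%.

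Extended regions lay near each other, near short regions and near regions of Q7SST alone more often than the regions they are set against. Another member lay within 50 kb of 45 of the 570 (7.89%, 5.95% to 10.4%), against 4.21% of the other regions. A region short in Q7SST lay within 50 kb of 58 (10.2%, 7.95% to 12.9%), against 4.75% of the regions that were not short themselves. A region found in Q7SST alone lay within 50 kb of 245 (43.0%, 39.0% to 47.1%), against 35.3% of all, and a region found in the 5 mutant-line lists without Q7SST of 142 (24.9%, 21.5% to 28.6%), an interval that holds the 22% of all. At the short regions the same shares were 11.1% near an extended region, 8.15% near another short one, 38.0% near a region of Q7SST alone and 28.3% near one of the mutant-line lists alone. These shares count regions that can share a neighbour, and the intervals do not cover that.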

How the data were processed

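The deposited peak lists hold coordinates with 1 score per peak, a whole number from the authors whose scale is not given in the sources used here. Chromatin had been crosslinked and cut with micrococcal nuclease. The submitters' processing notes name Trimmomatic 0.36, Bowtie2, SAMtools 1.3, MACS2 and mm10. Peak thresholds, input controls, read totals and any pooling of replicates are not given there either, so depth is unknown.

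Peaks overlapping by at least 1 bp were merged with numpy 2.4.6 and pandas 2.3.3 under Python 3.11.15, intervals came from scipy 1.17.1, and the rule was tested on simulated lists. Starts and genes came from GENCODE mouse release M21 (basic), bases from GRCm38. Shares carry 95% Wilson intervals for counting error. The members, gene lists and alternatives were chosen with earlier results of these data known. Regions were named for Htt, the 12 largest extensions, the 8 highest scores, the 3 smallest members and 3 nearest outside, both-end cases, up to 5 members each within and outside coding genes, listed genes (up to 25 by extension) and 5 large shortfalls. Among the smallest members, 1 is not reported here. The span of mutant-line ends, the weighting of opposite ends and the count of starts inside extensions were added after seeing the data.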

Additional observations from a re-analysis of the deposited data

How the results depend on the processing

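No paired analysis was possible because the 6 lists held 1 sample of every condition. The 570 extended and 540 short regions became 1597 and 1298 at 250 bp, and 119 and 211 at 1000 bp. Dropping peaks scored under 47, the pooled median, left 223 and 150, or 1.96% and 1.32% of a smaller base of 11368 regions. Where peaks of each list covered 50% of the region, 138 and 145 remained (1.02% and 1.07% of 13558). A long extension widens its region and so lowers that cover in the other lists. With lists of equal size the counts were 460 and 394 (2.46% and 2.11% of 18664), and leaving out 1 mutant-line list gave 586 to 736 and 554 to 700. At 250 bp the regions extended in other lists numbered 964 (Q111SST), 210 (cyproheptadine), 699 (loxapine), 164 (DKI) and 313 (meclizine), at 1000 bp 14, 1, 14, 0 and 8, and at the stricter score 113, 12, 95, 9 and 55. Equal list sizes left 34 with cyproheptadine and 33 with DKI. The downstream share of 66.0% was 74.6% at 1000 bp and 52.1% at the stricter score, and 60.1% to 66.5% under the other 5 alternatives. The opposite end was -121 bp from the furthest mutant-line end and -6.0 bp from their median. By coding genes, chromosome shares left their intervals on chromosomes 1 (4.51%), 3 (5.18%), 6 (1.39%), 10 (3.7%) and 12 (1.43%). Listed genes in members were 33, and 36 within 1 kb. Why the stricter score lowered the downstream share was not tested. A peak end depends on read depth, enrichment and the caller's threshold, none of which is known here, and 1 list per condition gives no error for it.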

Other observations

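The 5 regions with the largest shortfall of Q7SST are given as values. They lay at Dnm3os, the transcript opposite Dnm3 (3226 bp), at Meis2, a homeobox factor of striatal precursors (3164 bp), near Ddah1 (2759 bp), at Rapgef2 (2749 bp) and near Gm14496 (2700 bp). The region at Dnm3os was also extended, by 1215 bp, at its other end: its peaks were 1280 bp wide in Q7SST and 3271 to 3688 bp in the mutant-line lists, with scores of 17 and 58 to 77.

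Among members that held no annotated start, the largest extensions within coding genes after those of Tcf4 and Hs2st1 lay in Ttll5 (1720 bp), Phlpp1 (1694 bp) and Nr2f2 (1691 bp). The largest outside coding genes after that near Nr2f1 lay on chromosomes 17, 6, 13 and 15 (1733, 1609, 1527 and 1360 bp), where the nearest coding starts were those of Tgif1, Klf14, Mef2c and Pdgfb, 13519, 140750, 158734 and 10429 bp away. These too lay in whole or in part in introns or exons of noncoding genes, with 673 of the 1733 bp on chromosome 17 outside any gene and 0 bp in the other 3. In Hs2st1, a heparan sulfate sulfotransferase gene, the extension was 2061 bp, and peaks were 2915 bp wide in Q7SST and 366 to 969 bp in the mutant-line lists. At the Nr2f2 region the Q7SST score was 21, against 41 to 82 in the others, and Q7SST fell short of all 5 lists at the other end, 1687 bp inside the furthest of them, with widths of 1780 bp in Q7SST and 749 to 1668 bp in the others.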
